A study of Mus musculus with 12 samples.

Results

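Transcripts of 9 genes that define the B cell lineage were measured in 12 RNA-seq libraries of sorted mouse T follicular helper (Tfh) cells. The genes were Cd79a, Cd79b, Ms4a1, Cd22, Pax5, Blk, Bank1, Ebf1 and Cr2, taken by name from the 25793 genes of the count table. They were chosen by name, with their counts and FPKM values in these libraries known from an earlier look at the data. Their levels are therefore a description, and the p-values of the fits below only place each gene within the fit of all genes. Those of the permutation tests are a description as well. Of the 9 genes, 4 (Cd79a, Cd79b, Ms4a1 and Cd22) passed the filter on low counts and entered that fit with 7542 genes in all. The other 5 had too few reads and are given as counts.

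The cells were CD4+ OT-II T cells of the C57BL/6 strain, which carry a T cell receptor for an ovalbumin peptide. In every library they had been transduced to carry GFP and transferred into B6 mice together with dsRed-expressing MD4 B cells, which carry a receptor for hen egg lysozyme (HEL). The labels name no deletion of the recipients' own B cells, and the recipients had been immunized with HEL-OVA with LPS and Alum. On day 5, GFP+ CXCR5hi cells were sorted from the lymph node, 100 to 200 cells per library. The 6 wild-type (WT) libraries came from Pdcd1+/+ T cells and the 6 knock-in (KI) libraries from Pdcd1 KI/KI T cells. The labels state neither what the knock-in changes nor how many mice gave each library. Each title has a first number, 1 or 2, and a second number, 1 to 3, which the labels do not explain, so each genotype had 3 libraries with each first number. Libraries are named below by genotype and both numbers, as in WT 1-2. Nothing states that the libraries came from separate animals, so the p-values measure the spread between these libraries, which may be technical.

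B cells detect antigen through a surface immunoglobulin that signals through the Cd79a and Cd79b chains. CD20 (Ms4a1) sits beside this receptor in the membrane, the sialic acid-binding lectin CD22 restrains it, and complement receptor CD21 (Cr2) strengthens it. Blk, a Src-family kinase, and Bank1, a scaffold protein, act inside the cell, while the transcription factors Ebf1 and Pax5 set and hold B cell identity. T cells do not normally make this set, and Tfh cells work in close contact with B cells in the follicle.

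The promoters of Cd79a and Cd22 are shown because these genes gave opposite differences between the genotypes in the libraries with first number 1. Each window runs 5′ to 3′ on the gene's strand from 250 bases before the RefSeq start site to 50 after it (300 bases, build GRCm38.p6). Cd79a lies at chr7:24897247-24897546 on the + strand and Cd22 at chr7:30878979-30879278 on the - strand, and capitals mark matches on either strand to any of the motifs named after the sequences.
Cd79a: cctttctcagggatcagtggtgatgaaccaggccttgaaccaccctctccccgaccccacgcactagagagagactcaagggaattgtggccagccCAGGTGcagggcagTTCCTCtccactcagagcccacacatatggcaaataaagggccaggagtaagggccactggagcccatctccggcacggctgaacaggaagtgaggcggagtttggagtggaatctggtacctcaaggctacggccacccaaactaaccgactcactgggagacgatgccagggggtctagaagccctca
Cd22: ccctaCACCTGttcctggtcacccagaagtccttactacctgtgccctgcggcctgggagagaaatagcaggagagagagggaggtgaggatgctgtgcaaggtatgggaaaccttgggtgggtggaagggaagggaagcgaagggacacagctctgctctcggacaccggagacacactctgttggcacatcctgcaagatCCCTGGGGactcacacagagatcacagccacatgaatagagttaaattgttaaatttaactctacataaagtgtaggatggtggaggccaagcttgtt
The motifs searched were the EBF core CCCNNGGG, the E-box CAGGTG and the PU box GAGGAA. The Cd79a window held an E-box with its first base at position -154 from the start site and a PU box at -140, and no EBF core. The Cd22 window held an EBF core at -48 and an E-box at -245. Among 32851 promoter windows of the same length, 13.7% held the EBF core, 20.2% the E-box and 28.3% the PU box, so these matches are common and are given only as a description of the sequence. Promoter windows were found for 6 of the 9 genes. All 9 genes are protein coding in the GENCODE annotation of build mm9, the build named in the submitters' processing notes. There Cd79a spans chr7:25682400-25687216, Cd22 chr7:31650421-31665361, Cd79b chr11:106172655-106176076 and Ms4a1 chr19:11324654-11340669. The Ms4a1 span overlaps a long noncoding RNA on the other strand, 4930526L06Rik, and whether the counting used strand is not given in the sources used here.

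The libraries held 717506 to 1801504 counts assigned to genes, so the low genes below rest on few reads. WT 1-3 and KI 2-1 stood apart, with 46.1% and 51.5% of reads assigned to genes and 43.8% and 34.3% aligned more than once, against 56.8% to 60.2% and 26.7% to 30.3% in the other 10 libraries. They also had the lowest totals of their genotypes, at 717506 and 936912 counts. The T cell identity of the sort was checked with 16 T cell genes, all detected in all 12 libraries. Their summed level was 10452.7 to 13806.2 CPM (counts scaled to an adjusted library size, described below) in WT and 10204.6 to 14751.3 CPM in KI. Pdcd1, the targeted gene, averaged 292 ± 151 CPM in the WT libraries and 70.0 ± 47.2 CPM in the KI libraries (SD, n = 6), and the groups did not overlap, as for 0.146% of the genes tested. In edgeR's quasi-likelihood test its log2 fold change was -2.05 (SE 0.42) with an adjusted p of 0.231, and with a replicate block for the first number it was -2.24 (SE 0.22) with an adjusted p of 7.6e-06 (4 genes called, 0.0530%).

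Per transcript length, on the authors' FPKM scale, Cd22 and Cd79b had the highest levels of the 9 genes. Cd22 was at 18.4 ± 11.5 FPKM in WT and 26.8 ± 5.64 FPKM in KI (SD, n = 6 each). Cd79b was at 28.0 ± 8.53 FPKM in WT and 11.2 ± 6.30 FPKM in KI. Cd79a followed with 14.2 ± 5.28 and 5.67 ± 4.27 FPKM, and Ms4a1 with 10.6 ± 5.67 and 2.69 ± 1.82 FPKM. The order therefore differed between the genotypes: Cd79b was highest in WT and Cd22 in KI, while the SDs of neighbouring genes in this order overlapped, apart from Cd22 and Cd79b in KI. The same scale gave 569 ± 79.1 FPKM in WT and 558 ± 44.1 FPKM in KI for Lck, the kinase of the T cell receptor, and 87.1 ± 10.8 and 109 ± 18.4 FPKM for Cd4.

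**Figure D1:**
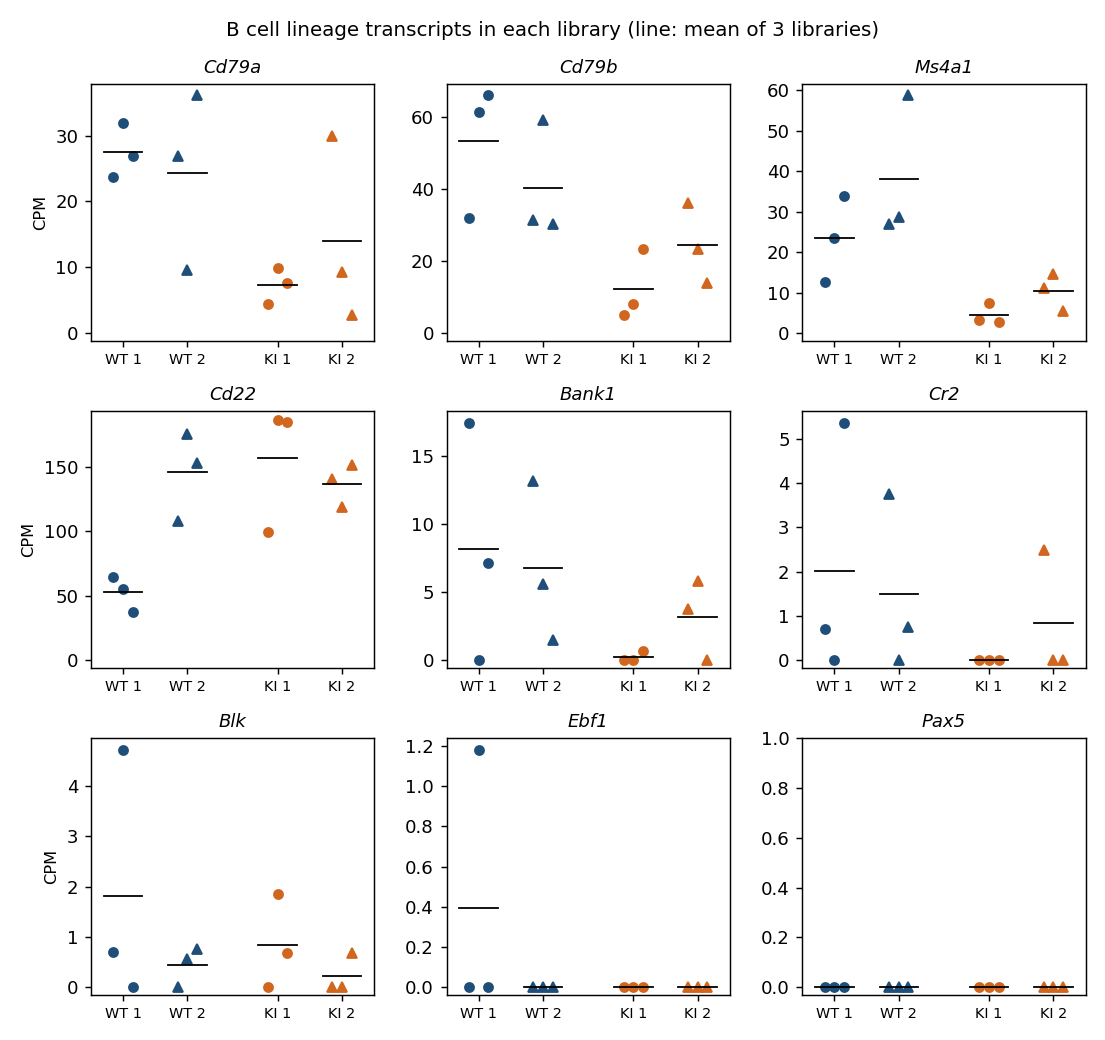
Level of each of the 9 genes in CPM (vertical axis, from 0) in each library, split by genotype and first title number; points are libraries and lines the mean of 3 libraries. Cd79a, Cd79b and Ms4a1 are mostly lower in KI, Cd22 is not, and Pax5 is at 0 in all 12 libraries.

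The receptor chains Cd79a and Cd79b were both lower on average in KI, and neither difference passed the test. Cd79a was at 23.7, 31.8, 26.8, 27.0, 9.56 and 36.2 CPM in WT 1-1, 1-2, 1-3, 2-1, 2-2 and 2-3. In the KI libraries, in the same order, it was at 4.45, 9.92, 7.56, 29.9, 9.26 and 2.77 CPM. The groups overlapped through KI 2-1, which was as high as most WT libraries, the library with the lowest assigned share in KI, and through WT 2-2, which lay within the KI range. The means were 25.9 ± 9.12 CPM in WT libraries and 10.6 ± 9.84 CPM in KI libraries (SD, n = 6), from 184 and 81 counts. The log2 fold change was -1.32 (SE 0.54) with an adjusted p of 0.914 (edgeR). Without KI 2-1 it was -1.91 (SE 0.52) with an adjusted p of 0.438 (edgeR), and over 22 alternatives the sign stayed the same and the adjusted p ran from 0.333 to 0.998. In a bulk library, fewer cells of a type and less RNA per cell cannot be told apart.

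Cd79b, the partner chain, was at 32.1, 61.3, 66.2, 31.4, 59.1 and 30.2 CPM in the WT libraries and at 5.08, 8.06, 23.4, 36.2, 23.4 and 13.8 CPM in the KI libraries, in the order given for Cd79a. Only KI 2-1 reached the WT range, and the highest level was in WT 1-3, the library with the lowest assigned share of all. The means were 46.7 ± 17.1 and 18.3 ± 11.6 CPM (SD, n = 6), and the log2 fold change was -1.36 (SE 0.45) with an adjusted p of 0.914 (edgeR). It was -1.65 without KI 2-1 and -1.24 without WT 1-3, and the corresponding values of Cd79a were -1.91 and -1.32. Among libraries with first number 1, every KI library was under every WT library for both chains, as did 7.81% of the genes tested. Among those with first number 2, the groups overlapped for both. The fits within first numbers gave log2 fold changes of -1.91 and -0.85 for Cd79a and of -2.13 and -0.74 for Cd79b, for first numbers 1 and 2. The difference between these was not past the test for either chain (edgeR interaction, adjusted p = 0.898 for Cd79a and 0.758 for Cd79b). Neither chain passed the test by first number, with log2 fold changes for 2 against 1 of 0.31 (SE 0.53) and 0.27 (SE 0.43) and adjusted p of 0.738 and 0.720 (edgeR).

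Ms4a1, which encodes CD20, showed the widest gap between the genotypes among the 4 tested genes. Its levels were 12.6, 23.6, 34.0, 27.0, 28.7 and 58.9 CPM in the WT libraries and 3.18, 7.44, 2.75, 11.2, 14.6 and 5.54 CPM in the KI libraries, in the same order. The lowest WT library, WT 1-1, lay just under KI 2-2, and no other pair overlapped. Within each first number every KI library was under every WT library, as did 7.81% of genes for first number 1 and 5.83% for first number 2. The means were 30.8 ± 15.5 CPM in WT libraries and 7.46 ± 4.68 CPM in KI libraries (SD, n = 6). The filter's level of 7.09 CPM is relative to raw gene counts, and the levels above are relative to adjusted totals. On the filter's scale only 2 KI libraries reached it, against 6 WT libraries, so the gene entered the fit through the WT group. Cd79a reached that level in 4 KI libraries and Cd79b in 5, against 6 WT libraries each, so both also passed with the help of WT libraries. Cd22 reached it in all 6 libraries of each genotype. The log2 fold change of Ms4a1 was -2.04 (SE 0.51), with an adjusted p of 0.487 in edgeR's test and of 0.0370 in DESeq2. DESeq2 called 11 genes (0.146%) where edgeR called 2. With a replicate block for the first number the value was -2.07 (SE 0.47) with an adjusted p of 0.155 (edgeR), and over 22 alternatives the adjusted p ran from 0.0370 to 0.996. Its log2 fold change was -2.17 without KI 2-1 and -2.02 without WT 1-3. The log2 fold change of first number 2 against 1 was 0.95 (SE 0.46) with an adjusted p of 0.168 (edgeR).

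Cd22, the inhibitory lectin, did not share this direction: its mean was higher in KI, at 147 ± 35.0 CPM against 99.1 ± 56.0 CPM in WT (SD, n = 6), from 1300 and 848 counts. The WT libraries were at 64.9, 55.4, 37.6, 108, 175 and 153 CPM and the KI libraries at 99.1, 186, 185, 141, 118 and 152 CPM, in the same order. The 3 WT libraries with first number 1 were the lowest of all 12, and the other libraries lay together near or above 100 CPM. The lowest level, in WT 1-3, was in the library with the lowest assigned share. The log2 fold change was 0.55 (SE 0.32) with an adjusted p of 0.938 (edgeR), and it was 0.38 without WT 1-3 and 0.55 without KI 2-1. Within first number 1 all 3 KI libraries lay above all 3 WT libraries, as did 7.81% of genes, and the log2 fold change was 1.54 (SE 0.34) with an adjusted p of 0.150 (edgeR). Within first number 2 it was -0.087 (SE 0.27) with an adjusted p of 0.983 (edgeR), and over 22 alternatives the adjusted p ran from 0.150 to 0.998. The interaction of genotype and first number was -1.64 (SE 0.43) with an adjusted p of 0.288 (edgeR), and without the filter on low counts it was -1.70 with an adjusted p of 0.0271, where 140 genes passed (0.967%) in place of 0 (0%), while at equal depth the adjusted p was 0.346. Its unadjusted p with the filter was 0.000996 (edgeR), rank 26 by p among the 7542 genes tested. At the looser threshold of an unadjusted p under 0.05, 3.17% of tested genes had a negative interaction. The WT libraries with first number 2 all lay above those with first number 1, a pattern shared by 14.5% of genes, and over both genotypes the log2 fold change of first number 2 against 1 was 0.59 (SE 0.28) with an adjusted p of 0.157 (edgeR).

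Read against all genes, the test of KI against WT called 2 genes at an adjusted p under 0.05 (0.0265% of those tested), and none of the 4 B cell genes was among them. At an unadjusted p under 0.05, 3 of the 4 were lower in KI, against 2.93% of all tested genes, and nothing is drawn from that count because the genes were chosen with this contrast in view. The median log2 fold change of the 4 was -1.34, and that of all tested genes was 0.015. By first number, 1208 genes passed (16.0%) and none of the 4 did.

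Bank1, Cr2 and Blk had few reads, and none passed a test between the genotypes. Bank1, the scaffold protein, had 25, 0, 4, 21, 10 and 2 counts in the WT libraries and 0, 0, 1, 3, 12 and 0 counts in the KI libraries, in the same order. It was over 3 counts in 4 WT libraries and in 1 KI library. Its difference in mean log2(CPM + 1), KI minus WT, was -1.56, with a p of 0.0909 in an exact two-sided permutation test over the 12 libraries and 0.364 after adjustment over the 4 such genes. Cr2, the complement receptor, had 1, 0, 3, 6, 0 and 1 counts in WT and 0, 0, 0, 2, 0 and 0 in KI (difference -0.78, exact permutation p = 0.227). Blk, the kinase, had 1, 4, 0, 0, 1 and 1 counts in WT and 0, 3, 1, 0, 0 and 1 in KI (difference -0.28, exact permutation p = 0.589). Each had at most 1 library over 3 counts, so differences in Cr2 and Blk were not detectable at this depth.

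The lineage transcription factors were at or near 0. Pax5 had no count in any of the 12 libraries, and 0 of 16323937 counts allows a level of up to 0.184 CPM over all libraries, or 1.67 to 4.18 CPM in a single library. Ebf1 had 1 count in all, in WT 1-2. These limits take 3 counts as the floor and cover counting error only. They are relative to raw gene counts, unlike the CPM levels of the other genes. Pax5 was also listed at 0 FPKM in every library, so neither genotype could be compared.

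The 4 tested genes did not move together. Of Cd79a, Cd79b and Ms4a1, each WT library had 2 or 3 above the median of the 12 libraries (3 libraries with all 3, and 3 with 2). In KI, 4 libraries had none above it, 1 had 1 and 1 had 2. Cd22 was above its median in 2 WT and 4 KI libraries. Summed over the 9 genes, the level was 213 ± 55.3 CPM in WT libraries and 186 ± 42.9 CPM in KI libraries (SD, n = 6), with ranges of 152 to 282 and 112 to 224 CPM that overlapped. Summed without Cd22 it was 114 ± 19.5 CPM in WT libraries and 39.1 ± 25.6 CPM in KI libraries, with ranges of 87.2 to 140 and 12.7 to 83.5 CPM that did not overlap. The highest library of each genotype was WT 1-3 and KI 2-1, and without them the ranges were 87.2 to 128 and 12.7 to 53.1 CPM. Leaving out Cd22 was chosen after its values were seen, and this sum has no test. Cd22 made up 21.2% to 62.9% of the counts of the 9 genes in WT libraries and 62.8% to 88.6% in KI libraries.

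The ratio of Cd22 counts to those of Cd79a and Cd79b together gives the same contrast within a library, where depth cancels; it was also chosen after the values were seen. It ran from 0.404 to 2.56 in WT (median 1.51) and from 2.13 to 10.4 in KI (median 7.55). On the FPKM scale the same ratio ran from 0.120 to 0.754 in WT and from 0.645 to 3.15 in KI. The groups met only at the edge on both scales. WT 1-3 had the lowest count ratio of all and KI 2-1 the lowest of KI, and without them the count ratio ran from 0.595 to 2.56 in WT and from 3.63 to 10.4 in KI. A ratio of this kind shows that the transcripts did not keep one proportion across the libraries, and does not say which of them differed.

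**Figure D2:**
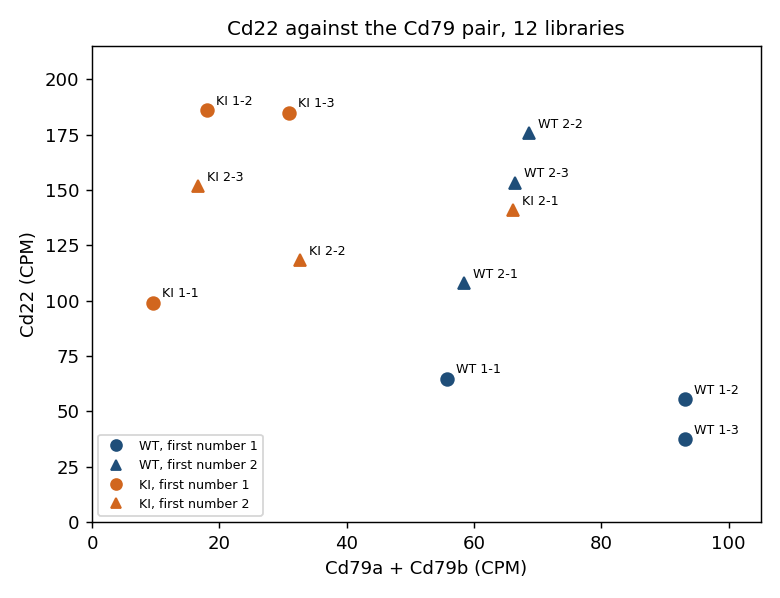
Cd22 (vertical axis, CPM) against the sum of Cd79a and Cd79b (horizontal axis, CPM) in the 12 libraries, with points coloured by genotype and shaped by first title number. The Cd79 sum is 55.8 to 93.2 CPM in WT and 9.53 to 66.1 CPM in KI, while Cd22 is at or below 64.9 CPM only in the 3 WT libraries with first number 1.

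Across the 12 libraries, the 3 pairs among Cd79a, Cd79b and Ms4a1 had Pearson's r of 0.674 to 0.742 on log2(CPM + 1). The permutation p was 0.0261 to 0.0335 after adjustment over the 6 pairs computed. The genes were chosen with their values known, and the permutation mixes the genotypes. These p-values therefore cannot separate a shared difference between the genotypes from a link between the genes, and nothing is drawn from them. Spearman's rho was 0.629 to 0.692 (permutation p of 0.05 to 0.0648, adjusted). Without the 2 libraries farthest from the median, r was 0.463 to 0.627. The 3 pairs with Cd22 had r of -0.450 to -0.328 (adjusted permutation p of 0.194 to 0.297) and rho of -0.497 to -0.266. Within WT the pairs among the first 3 genes had r of -0.357 to 0.230, and within KI 0.482 to 0.617. Without the 2 farthest libraries these were 0.496 to 0.634 within WT and 0.390 to 0.674 within KI, over 4 libraries each, so the value within WT turned on those 2 libraries. Within first number 1, r was 0.793 to 0.929, with adjusted permutation p of 0.0625 to 0.0917, and the pairs with Cd22 there had r of -0.842 to -0.705 (adjusted permutation p of 0.0889 to 0.126). Within first number 2, r among the 3 genes was 0.509 to 0.683, and without the 2 farthest libraries it was -0.241 to -0.019, so there it rested on those libraries. The pairs with Cd22 had r of -0.253 to 0.291 within first number 2, -0.416 to 0.381 within WT and -0.122 to 0.255 within KI, so r was negative for all 3 pairs within first number 1 alone of these 4 subsets. No pair passed the adjusted test within a genotype or a first number.

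Equal depth was set by drawing 717506 counts from each library, the total of the smallest one, in 1 random draw. Cd79a then had 7 to 27 reads in WT and 2 to 17 in KI, Cd79b 24 to 48 and 5 to 26, Ms4a1 11 to 37 and 2 to 6, and Cd22 21 to 130 and 74 to 140. In this draw Ms4a1 did not overlap between the genotypes, as for 0.112% of genes, and the other 3 genes did. In expectation at that depth KI 2-2 had 11.9 reads of Ms4a1 and WT 1-1 had 9.17, so the absence of overlap belongs to the draw. The log2 fold changes were -1.32 for Cd79a, -1.17 for Cd79b, -2.34 for Ms4a1 and 0.49 for Cd22, with adjusted p of 0.825, 0.807, 0.109 and 0.928 (edgeR). The 9 genes without Cd22 summed to 69 to 93 reads in WT and 12 to 51 in KI, and the ratio of Cd22 to the Cd79 pair ran from 0.404 to 2.36 in WT and from 1.95 to 8.69 in KI. The number of the 9 genes expected with at least 1 read was 5.42 to 6.02 in WT and 3.96 to 5.93 in KI. All 4 tested genes kept the sign they had at full depth.

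**Figure D3:**
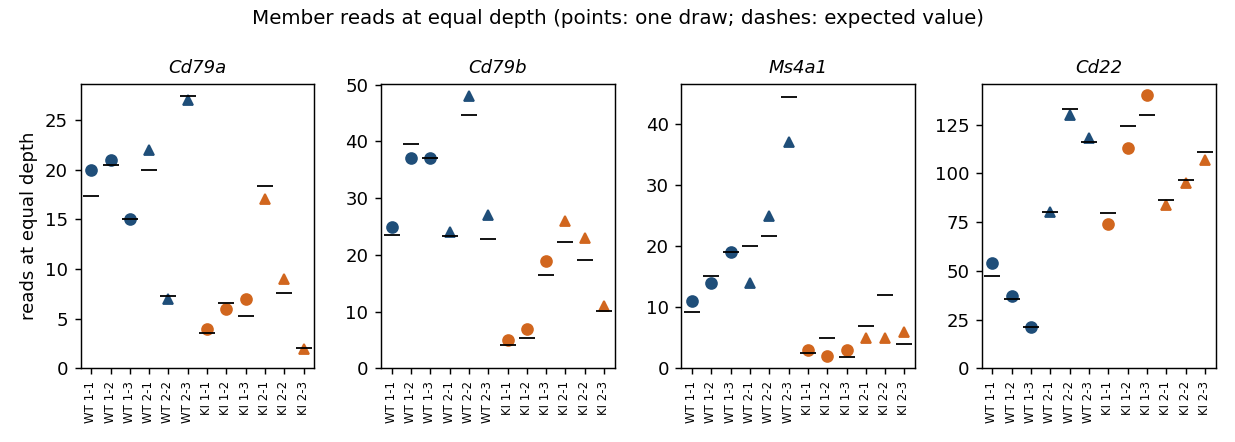
Reads of the 4 tested genes in each library (horizontal axis) after thinning to 717506 counts; points are the single draw, dashes the expected value, circles first number 1 and triangles first number 2. Ms4a1 is at 2 to 6 reads in the KI libraries and at 11 to 37 in the WT libraries, while Cd22 is lowest in the 3 WT libraries with first number 1.

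Other genes of the B cell programme showed small or uncertain differences, and none passed the test of KI against WT. Of 15 further receptor and coreceptor genes, 4 were tested, 1 with a higher and 3 with a lower mean in KI. Fcrl1, an Fc receptor-like protein of B cells, was at 18.6 ± 10.9 CPM in WT libraries and 25.9 ± 12.7 CPM in KI libraries (log2 fold change 0.43, SE 0.51), in the direction of Cd22. Cd81, a tetraspanin made by both B and T cells, was at 8.68 ± 4.71 FPKM in WT and 7.74 ± 4.51 FPKM in KI. Fcer2a, the low-affinity IgE receptor CD23, is named after its values were seen. It was at 19.5 ± 15.9 CPM in WT libraries and 8.19 ± 7.88 CPM in KI libraries, and its log2 fold change of -1.26 (SE 0.71) had the sign of the Cd79 pair, with spreads nearly as wide as the means.

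Of 16 genes on the immunoglobulin list, 3 were measured, and none of these passed the filter. Igj was at 8.01 ± 6.41 CPM in WT libraries and 5.05 ± 2.44 CPM in KI libraries. Vpreb3 was at 2.44 ± 1.35 and 1.54 ± 1.76 CPM, and Igll1 was at 0 throughout. The listed constant region genes of the heavy and light chains, such as Ighm and Igkc, were not in the count table under those names. Their levels are therefore unknown here. The signalling list had 3 tested genes of 10 measured, 1 with a higher and 2 with a lower mean in KI, and the transcription factor list 6 of 10, 2 higher and 4 lower, with medians of -0.24 and -0.029 on the log2 scale against 0.015 over all genes. These lists were led by Prkcb, Dapp1, Ikzf3 and Tcf3, which T cells also express. The medians leave out the genes below the filter, and 4 of those are named here after their values were seen. Mef2c was at 11.3 ± 13.1 CPM in WT libraries and 2.20 ± 2.02 CPM in KI libraries, and Blnk at 5.15 ± 4.01 and 0.913 ± 0.521 CPM. Swap70, at 4.96 ± 4.13 and 4.86 ± 4.11 CPM, and Sfpi1, at 2.68 ± 2.82 and 2.70 ± 2.22 CPM, were nearly level. Their differences were not tested. In the list of germinal centre and plasma cell genes, Xbp1, the plasma cell regulator, and S1pr2, a receptor that holds cells in the germinal centre and is also expressed by Tfh cells, fell with first number 2 against 1. Their log2 fold changes were -0.83 and -1.25 with adjusted p of 0.0453 and 0.0012 (edgeR), while neither passed between the genotypes.

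MHC class II genes present antigen on B cells and other antigen-presenting cells. Of the 7 class II genes tested, 6 had a lower and 1 a higher mean in KI, with a median log2 fold change of -1.09, and none passed the test. H2-Ab1, a chain of the peptide-binding I-A molecule, was at 91.1 ± 36.8 CPM in WT libraries and 45.6 ± 27.3 CPM in KI libraries (SD, n = 6, log2 fold change -1.01, SE 0.39, edgeR adjusted p = 0.914). H2-DMa, which helps load peptide, was the exception, at 68.3 ± 31.5 CPM in WT libraries and 98.1 ± 22.5 CPM in KI libraries (log2 fold change 0.51). Cd74, the invariant chain, and H2-Ob, a B cell modulator of loading, are named after their values were seen, with log2 fold changes of -1.32 (SE 0.44) and -1.40 (SE 0.33) and adjusted p of 0.914 and 0.410 (edgeR). By first number, H2-DMa and H2-Oa rose with 2 against 1, with log2 fold changes of 0.77 and 1.83 and adjusted p of 0.0258 and 0.0342 (edgeR).

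**Figure D4:**
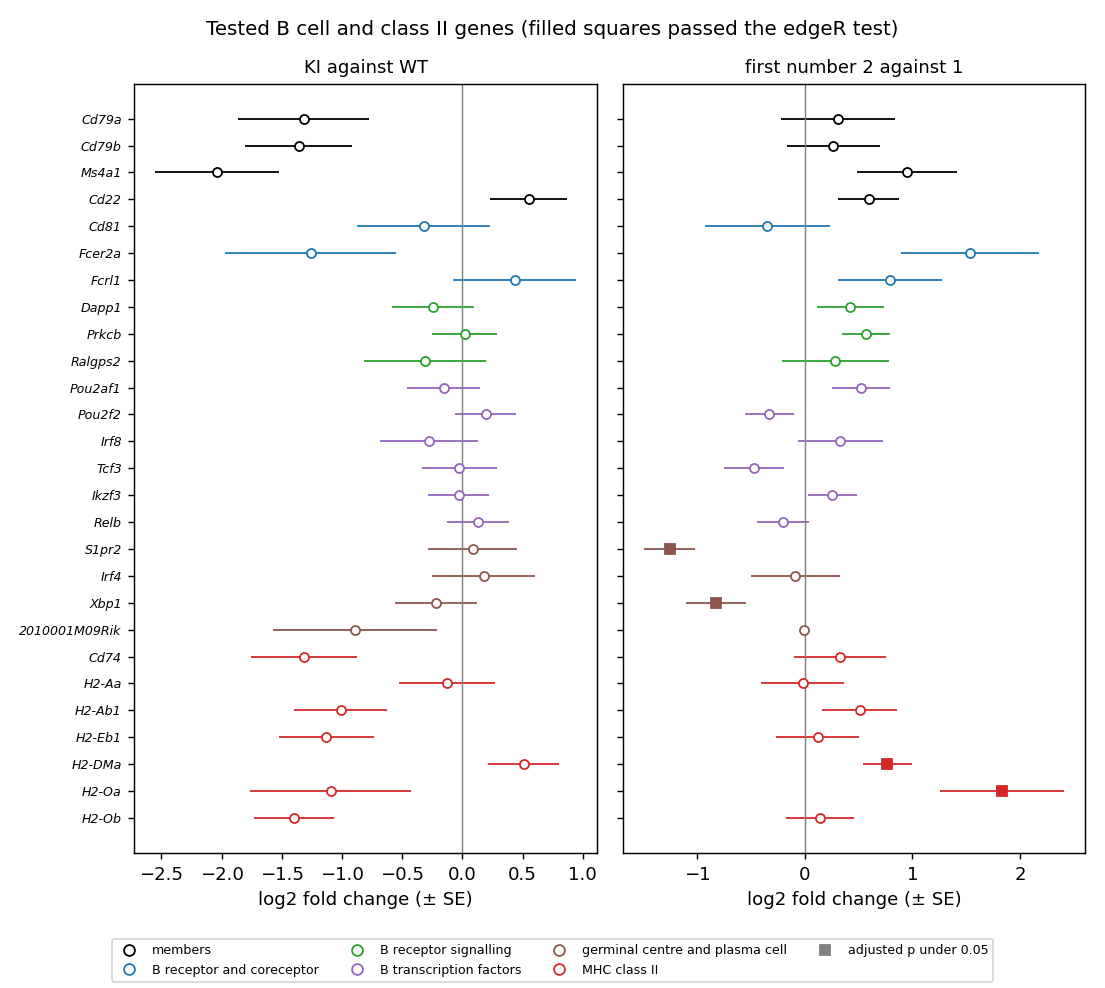
Log2 fold change with its SE (horizontal axes) of the tested B cell and class II genes for KI against WT (left) and first number 2 against 1 (right), coloured by list; filled squares passed at an adjusted p under 0.05. Cd79a, Cd79b and Ms4a1 lie between -2.04 and -1.32 on the left and Cd22 at 0.55, with no filled square there; the right panel has 4, at S1pr2, Xbp1, H2-DMa and H2-Oa. One gene with a value near 0 on the right is drawn without an error bar.

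Markers of other cell types were at these levels beside the B cell genes. The 15 myeloid genes measured summed to 11.2 to 283 CPM in WT (median 20.0) and 4.96 to 78.9 CPM in KI (median 25.6), with 3 of them at 0 in all libraries. The highest value was that of WT 1-3, and the other 5 WT libraries were at 11.2 to 38.4 CPM. Of 10 dendritic cell genes 5 were at 0 in all libraries, and of 13 stromal and follicular dendritic cell genes 7 were. The dendritic cell genes still summed to 175 to 324 CPM in WT and 238 to 339 CPM in KI. That sum came mostly from Ccr7 (mean 214 CPM) and Cst3 (mean 50.4 CPM), and the next gene, Flt3, had a mean of 2.28 CPM. The stromal and follicular dendritic cell genes summed to 28.9 to 123 CPM in WT and 68.0 to 90.7 CPM in KI. Pecam1 (mean 57.8 CPM) and Mfge8 (mean 21.8 CPM) made up most of it, and the next gene, Pdpn, had a mean of 0.818 CPM. Which cells gave the reads of these leading genes was not tested. Cytotoxic genes summed to 48.4 to 484 CPM in WT and 68.7 to 440 CPM in KI, and erythroid genes to at most 5.08 CPM. The part of these cells in the differences of the B cell genes was not tested. Of the 16 T cell genes, none passed between the genotypes, while by first number Cd28 rose and Cd247, Lat and Zap70 fell, with log2 fold changes of 0.50, -1.24, -0.70 and -0.45 (edgeR, adjusted p under 0.05). Tcf7 and Lck, the T cell genes with the highest levels, passed neither test.

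The genes most like the summed level of the 9 genes over the 12 libraries were not B cell genes. Ranked by Pearson's r on log2(CPM + 1), the leading 8 were Rb1cc1 (0.88), Zc3h11a (0.87), Rala (0.85), Pde7a (0.85), Herc2 (0.82), Ddx59 (0.82), Aig1 (0.82) and Cpne8 (0.82). When the means of the first numbers were removed, 4 of these 8 remained in the leading 8, and without the 2 highest libraries 2 did. Against the sum without Cd22, an alternative chosen after the data were seen, none of the 8 remained. The leading gene against that sum was Son (r = 0.94), which is on no B cell or class II list. Of the 24 tested genes of those lists, 2 were in the first 100 of 7538 ranked genes. They were Cd74 at rank 18 (r = 0.82) and H2-Ab1 at rank 51 (r = 0.77). The other genes of the lists ran from rank 107 (2010001M09Rik, r = 0.72) to rank 6525 (H2-DMa, r = -0.41). Between these, H2-Eb1 was at 166 (r = 0.68), Pou2af1 at 386 (r = 0.59) and Fcrl1 at 4525 (r = -0.13). These genes are named after their ranks were seen. These rankings are a description over libraries that differ in depth, genotype and first number.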

How the data were processed

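RNA was measured in 12 libraries, 6 WT and 6 KI, grouped by their titles. The authors deposited raw counts per gene for the whole series, with summary entries for unassigned reads, and FPKM values (fragments scaled by transcript length and depth). The submitters' processing notes name CASAVA, TopHat2, Cufflinks, HTSeq, DESeq2 and build mm9, without versions or roles. Which annotation was counted, and whether strand was used, is not given in the sources used here. Summary entries, 39.8% to 53.9% of the count table per library, were left out, and 27 repeated names in the FPKM table were summed.

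Counts were tested with edgeR 4.0.16 in R 4.3.3 (TMM scaling, filterByExpr with a minimum of 10 counts, quasi-likelihood F test with default settings, Benjamini-Hochberg adjustment over 7542 genes, threshold 0.05). A prior count of 2 entered only the log CPM values behind the correlations of deviations given below. The SE of an edgeR fit is the absolute log2 fold change divided by the square root of its F value. The contrasts were KI against WT without a covariate, first number 2 against 1 with genotype as covariate, and their interaction. CPM is relative to the TMM-scaled total of a library, not to its raw gene counts. The limits for a count of 0 and the level of the filter are relative to raw gene counts. Genes under the filter were compared with exact permutation tests on log2(CPM + 1). A floor of 3 counts limits what a count of 0 allows, and intervals and floors cover counting error only.

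The genes named are the 9 genes, Pdcd1, the 2 genes with the highest mean CPM and any gene past the threshold in each B cell, class II and T cell list, and the 8 genes most like the summed level. The 9 genes and the lists were chosen with earlier results of these data known. One gene of the lists is not reported here by name. Alternatives were DESeq2 1.42.0, its size factors (RLE), no filter, equal depth, limma 3.58.1 on log2(FPKM + 1) and log2(FPKM + 0.1), replicate blocks, each first number alone and leaving out each library. Libraries of the 2 genotypes with the same first number deviated together (mean correlation of deviations 0.166, against -0.165 with the other first number). The second number paired no samples: with first-number means removed, the mean was -0.0049 over the 6 pairs with both numbers alike. What the first number marks is not stated, so it is not in the main fit and enters as an alternative replicate block. On simulated data for KI against WT, with 7286 of 7542 genes tested, edgeR recovered 70.7% of 4-fold and 17.0% of 2-fold changes, with 4.71% false calls. The simulation held 92 tested genes changed 4-fold and 94 changed 2-fold, had no first-number effect and gave 85 calls. The measured contrast gave 2 calls, so the recovered shares do not carry over to it.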

Additional observations from a re-analysis of the deposited data

Results flagged for a closer look

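In 5 of 19 sets of 6 libraries of one genotype, a single library stood apart from the other 5 by Dixon's criterion. The 5% of sets that chance flags for continuous values does not apply to the 4 sets of Blk, Cr2 and Ebf1 below, where a few reads beside values at or near 0 set the gap, so no excess is read from the number. Cd79a in KI 2-1 was at 29.9 CPM (24 counts), and the next KI library was at 9.92 CPM; KI 2-1 also had the lowest assigned share of reads in KI, 51.5%. Cr2 in the same library was at 2.49 CPM (2 counts), with 0 in the other KI libraries. Blk was at 4.72 CPM in WT 1-2 (4 counts, next 0.755 CPM) and at 1.86 CPM in KI 1-2 (3 counts, next 0.692 CPM). Ebf1 was at 1.18 CPM in WT 1-2 (1 count), with 0 in the other WT libraries. Apart from Cd79a, these values rest on 4 counts or fewer.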

How the results depend on the processing

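The number of genes called for KI against WT was 2, and it was 11 with DESeq2, 4 without the filter, 4 with a replicate block for the first number and 1 within first number 2. It was 0 with limma on log2(FPKM + 1) and 0 on log2(FPKM + 0.1) (404 and 397 genes at an unadjusted p under 0.05). Leaving out 1 library at a time gave 0 to 2. For first number 2 against 1, where the main count was 1208, limma on log2(FPKM + 0.1) gave 700, and leaving out 1 library gave 751 (without KI 2-2) to 1252. The interaction passed for 0 genes (544 at an unadjusted p under 0.05), and without the filter for 140, of which 123 were higher and 17 lower. The cause was not tested.

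Over 22 alternatives, the log2 fold change of KI against WT ran from -1.91 to -0.85 for Cd79a, from -2.13 to -0.74 for Cd79b and from -2.38 to -1.66 for Ms4a1, which passed with DESeq2 alone. That of Cd22 ran from -0.087 (within first number 2, the only reversal) to 1.54. For first number 2 against 1, Cd79a ran from -0.20 (without KI 2-1, a reversal) to 0.55 when 1 library was left out. The replicate block changed no call among the 4 B cell genes, and Pdcd1 passed under it. Pdcd1 passed in 6 of 22 alternatives, each time lower in KI. With 24 or fewer counts of Cd79a in each KI library, counting error limits single values.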

Other observations

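Cd72, an inhibitory coreceptor of B cells that is not among the 9 genes, was singled out after its values were seen, because the deposited tables differed for it. It had 0 counts in 8 libraries, 2 WT and all 6 KI, and in each of these it was listed at 1.54 to 9.94 FPKM. Of the 137 genes of all lists present in both tables, Cd72 was the only 1 with a library at 0 counts and over 1 FPKM. In the GENCODE annotation of build mm9 its span overlaps that of Tesk1 on the other strand. The role of that overlap was not tested.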
